A study of Ovis aries with 2 samples.

Results

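KRT7-positive epithelial cells were examined in embryos of 2 Mongolian sheep breeds at embryonic day 16, sequenced as single cells on the 10x Genomics platform. A cell entered the group if it held at least 1 UMI (a unique molecular identifier, which counts 1 captured RNA molecule) of KRT7, at least 1 of EPCAM, CLDN4 or CLDN7, at least 1 of UPK3A, CXCL14 or WFDC2, and under 200 UMIs per 10000 over the plasma protein genes AHSG, AFP, TTR and SERPINA1. Barcodes were kept as cells when 200 genes or more were detected and mitochondrial transcripts made up less than 10% of the UMIs, and 474 of the 24137 kept cells met the rule. They were 201 of 14554 kept cells in Ujumqin sheep, the control breed, and 273 of 9583 in Hulunbuir sheep, the short-tailed breed. The authors' methods state that extraembryonic tissue was dissected away before the embryos were dissociated. By the same methods, ewes of both breeds were of the same age and were given progesterone vaginal sponges and the hormone PMSG before mating. Each breed was 1 library of enzymatically dissociated embryos treated with red cell lysis buffer. The labels give n = 3 per breed without a way to assign a cell to an embryo. No difference between breeds could therefore be tested, no p-value was computed, and the intervals below are 95% intervals of counting error only. The cells were chosen by measured values, so the levels of the 11 selection genes are given as a description.

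Simple epithelia form sheets held together by claudins, desmosomes and the adhesion protein EPCAM, and are built on the keratins KRT8, KRT18, KRT19 and KRT7. UPK3A is a uroplakin, a membrane protein best known from the urothelium that lines the bladder, and uroplakin-bearing epithelium also lines the allantois, the extraembryonic sac that grows out of the hindgut and holds fetal urine in ruminants. CXCL14 is a chemokine made by many epithelia, ectodermal ones among them, and WFDC2 is a secreted whey acidic protein domain protein of mucosal epithelia. The working label of these cells was an allantois-like epithelium, resting on KRT7, UPK3A, CXCL14, WFDC2, CLDN7 and EPCAM. All 6 of these genes were used in the selection, so their presence is no check of that label.

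Few of the selected cells held both UPK3A and CXCL14 in either library. In Ujumqin sheep 66 cells held UPK3A without CXCL14, 37 held CXCL14 without UPK3A, 4 held both and 94 had entered through WFDC2 alone. In Hulunbuir sheep these numbers were 40, 107, 6 and 120. A cell without WFDC2 had to hold UPK3A or CXCL14 to be chosen, which by itself sets these genes against each other. Among cells with WFDC2, where that condition was already met, 62 held UPK3A alone, 18 CXCL14 alone and 3 both in Ujumqin sheep, and 31, 80 and 5 in Hulunbuir sheep. Counts of both genes are sparse, so these numbers are a description and no exclusion is read from them. The 4 and 6 cells with both had medians of 75507 UMIs (9687 to 170157) in Ujumqin and 22336 (3236 to 76762) in Hulunbuir sheep. Medians were 18533 and 19779 in the UPK3A-positive and 13655 and 15490 in the CXCL14-positive cells. Some cells with both were thus shallower than these medians. Whether the cells with both were droplets with more than 1 cell was not tested. The names UPK3A-positive and CXCL14-positive are used below for cells with one gene and without the other.

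**Figure D1:**
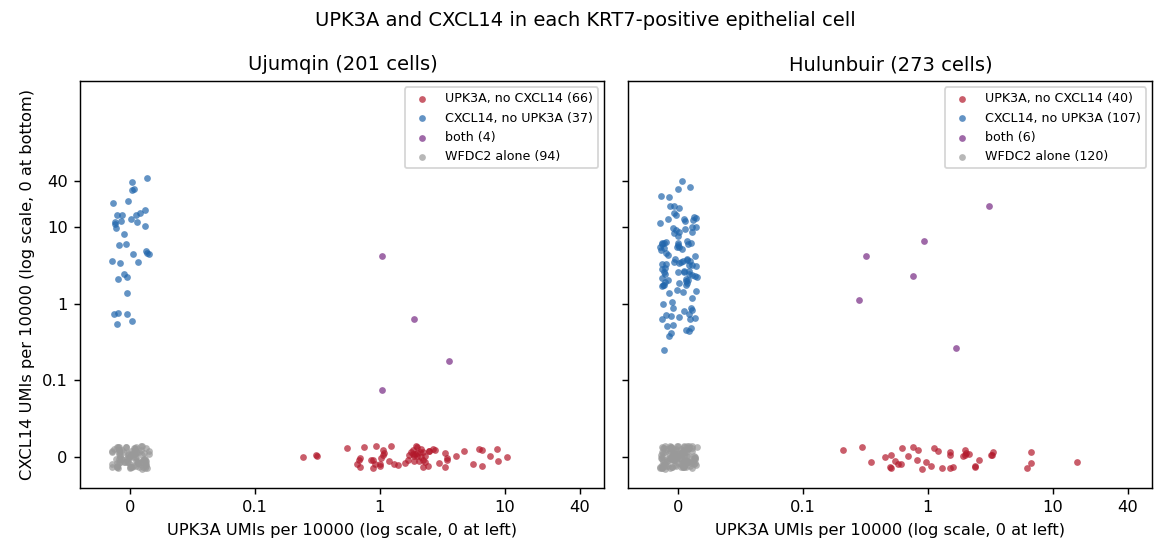
UMIs of UPK3A (x axis) and CXCL14 (y axis) per 10000 UMIs in each KRT7-positive epithelial cell of the Ujumqin and Hulunbuir libraries, on log axes with cells at 0 drawn in a jittered band at the edge. The cells lie along the axes, and only 4 of 201 Ujumqin and 6 of 273 Hulunbuir cells hold UMIs of both genes.

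Per cell, UPK3A ran from 0.244 to 10.4 UMIs per 10000 with a median of 1.94 in the 66 UPK3A-positive Ujumqin cells, and from 0.209 to 15.6 with a median of 1.25 in the 40 Hulunbuir ones. CXCL14 ran from 0.536 to 43.9 with a median of 8.15 in the 37 CXCL14-positive Ujumqin cells and from 0.250 to 39.9 with a median of 3.31 in the 107 Hulunbuir ones. KRT7 itself, present in every selected cell by the rule, was lower in the CXCL14-positive cells, with medians of 2.01 against 4.45 per 10000 in Ujumqin and 1.73 against 5.75 in Hulunbuir sheep. The ranges of KRT7 overlapped in both libraries.

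The place of the selected cells among clusters made without the selection genes was also described, and unselected cells lay in the same clusters. When kept cells of each library were clustered on variable genes that excluded all 11 selection genes, 58 of the 66 UPK3A-positive cells of Ujumqin sheep fell in cluster 16 and 32 of the 37 CXCL14-positive cells in cluster 1. In Hulunbuir sheep 37 of the 40 UPK3A-positive cells fell in cluster 17 and 95 of the 107 CXCL14-positive cells in cluster 14. No CXCL14-positive cell lay in cluster 16 of Ujumqin and 1 lay in cluster 17 of Hulunbuir sheep, while 3 and 1 UPK3A-positive cells lay in the clusters of the CXCL14-positive cells. Clusters are built from all other genes of these cells, so this placement describes the cells and tests nothing. The cells that had entered through WFDC2 alone divided between the same clusters, 50 and 28 in Ujumqin and 48 and 33 in Hulunbuir sheep, and a further 15 were in Hulunbuir cluster 16, led by DLK1, EMX2 and LHX1. The leading genes of Ujumqin cluster 16 included WFDC2, S100A2, KRT7, S100A5, CLDN4, UPK3A and STARD10, and those of Hulunbuir cluster 14 included CXCL14, TFAP2B, KRT18, CRABP1 and CCDC68. Cluster 1 of Ujumqin sheep was mostly other cells, with 64 selected cells among 1947 and a median of 1640 UMIs, against 7588 in the selected ones. Cluster 17 of Hulunbuir sheep also held 64 other cells with AHSG at 9034 CPM, against 0.547 CPM in the 87 selected cells there.

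**Figure D2:**
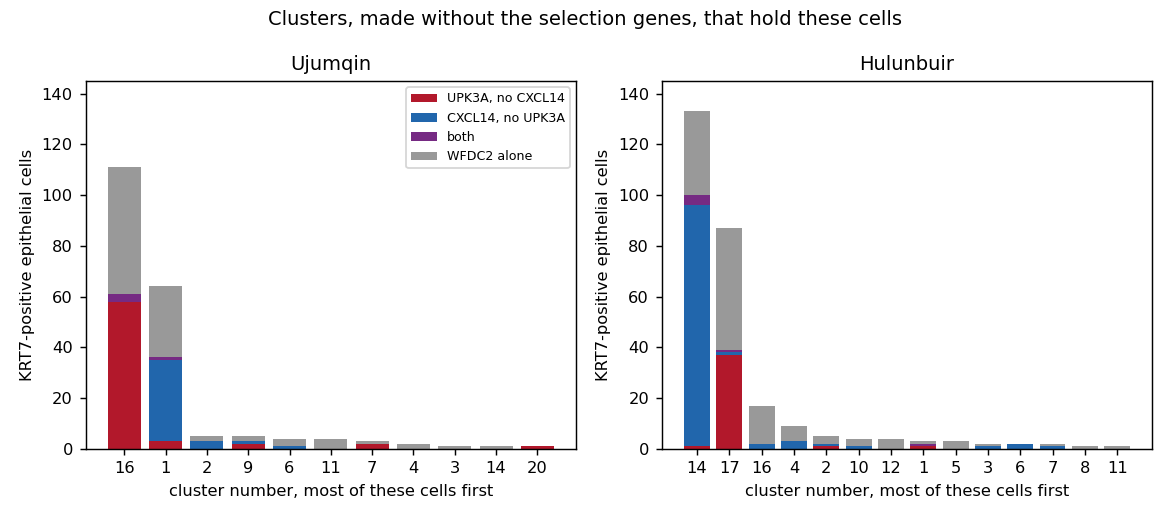
Number of KRT7-positive epithelial cells (y axis) in each cluster that holds any (x axis), in the Ujumqin and Hulunbuir libraries, coloured by the genes they hold. Clusters were made without the selection genes, and the UPK3A-positive and CXCL14-positive cells lie mainly in different clusters of each library.

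Genes outside the selection followed the same division in both libraries. Levels were summed over the cells of a group and are given as CPM, scaled to 1000000 UMIs in the group. With 10 CPM added to each level and genes of at least 50 CPM in either group considered, 25 of 1731 genes (1.44%) were at least 4-fold higher in the UPK3A-positive than in the CXCL14-positive cells of Ujumqin sheep, and 10 of 1999 (0.5%) in Hulunbuir sheep. The reverse was seen for 20 genes (1.16%) and 19 genes (0.95%). Apart from the splitting genes, S100A5, S100A2, ANXA1, STARD10 and HSPB1 were higher in the UPK3A-positive cells of both libraries, and TFAP2B, CRABP1, CRABP2, CD24, CCDC68, TCF4, KIF5C and TIMP1 in the CXCL14-positive cells of both. These shared genes were 6 with UPK3A, 24% of the Ujumqin and 60% of the Hulunbuir genes, and 9 with CXCL14, 45% and 47.4%. The median log2 ratio of UPK3A-positive over CXCL14-positive cells over all genes considered was 0.33 in Ujumqin and 0.11 in Hulunbuir sheep.

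The UPK3A-positive cells carried S100 calcium-binding proteins. S100A5 was at 376 CPM (351 to 403) in the UPK3A-positive and 2.51 CPM (0.517 to 7.32) in the CXCL14-positive cells of Ujumqin sheep, and at 181 CPM (157 to 208) against 0 UMIs, which allows 1.54 CPM, in Hulunbuir sheep. It was detected in 56 of 66 and 26 of 40 UPK3A-positive cells and in 2 of 37 and 0 of 107 CXCL14-positive cells. S100A2 was at 1331 against 287 CPM and at 582 against 68.4 CPM, so that it was lower but not missing in the CXCL14-positive cells. ANXA1, a phospholipid-binding annexin, was at 136 against 20.05 CPM and at 97.8 against 6.69 CPM. STARD10, a phospholipid transfer protein, was at 165 against 29.2 CPM and at 168 against 25.7 CPM. HSPB1, the small heat shock protein HSP27, was at 2621 against 461 CPM and at 3690 against 841 CPM. These genes were named because they passed 4-fold in both libraries, so their counting intervals, which did not overlap, add no support. The intervals also leave out the spread between cells.

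Genes of lipid handling and of epithelial regulation were followed as fixed lists. FABP3, a fatty acid binding protein, was at 406 against 27.6 CPM in Ujumqin and 379 against 120 CPM in Hulunbuir sheep, and ELOVL6, a fatty acid elongase, at 84.6 against 9.19 CPM and 107 against 34.0 CPM. Of the fatty acid synthesis list (18 genes in the files) these 2 passed the 4-fold limit in Ujumqin sheep and none did in Hulunbuir sheep. Only 2 were considered in each, and over all genes considered 1.44% and 0.5% passed on the UPK3A side. In the epithelial regulator list 1 gene was considered in each library and none passed. The other uroplakins were sparse. UPK1B, the partner of UPK3A in the urothelial membrane, had 23 UMIs in 17 UPK3A-positive cells and 1 UMI in the CXCL14-positive cells of Ujumqin sheep, and 6 UMIs in 5 cells against 0 in Hulunbuir sheep, while UPK1A, UPK2 and UPK3B together stayed under 6 CPM in every group. The next 3 factors stayed under the 50 CPM limit, and of them ELF5 and PPARG belong to the trophectoderm list. ELF5, an epithelial factor of trophoblast and gland, was at 24.8 against 2.51 CPM and at 15.3 against 2.06 CPM. PPARG, a lipid-sensing receptor also active in urothelium, was at 21.1 against 5.85 CPM and at 6.28 against 0.515 CPM, the last resting on 7 UMIs and 1 UMI. ELF3 was at 31.3 against 6.68 CPM and 44.0 against 5.66 CPM. JAK1, named here after its values were seen, was at 43.7 against 2.51 CPM and at 65.5 against 4.12 CPM.

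The CXCL14-positive cells carried the AP-2 factors. TFAP2B, an AP-2 transcription factor of ectoderm and neural crest, was at 114 CPM (96.1 to 135) in the CXCL14-positive cells of Ujumqin and 147 CPM (130 to 165) in those of Hulunbuir sheep, with 0 UMIs in both sets of UPK3A-positive cells, which allows 1.38 and 2.69 CPM. The level was thus at least 83-fold and at least 54.5-fold higher, taking 3 counts over each UPK3A-positive group as the limit. TFAP2B was found in 23 of 37 and 82 of 107 CXCL14-positive cells. TFAP2A was at 56.8 and 38.1 CPM, with 1 UMI in each set of UPK3A-positive cells, and DLX5, a homeobox factor of non-neural ectoderm, was at 15.9 and 32.4 CPM, again with 1 UMI in each. The surface ectoderm list (12 genes in the files) had 2 genes at least 4-fold higher in the CXCL14-positive than in the UPK3A-positive cells in Ujumqin and 1 in Hulunbuir sheep, which were all of the 2 and 1 genes that could be considered, beside 1.16% and 0.95% of all genes considered. TP63, the defining factor of stratifying surface ectoderm, had 3 UMIs in the CXCL14-positive cells of Ujumqin and 14 UMIs, in 13 cells, in those of Hulunbuir sheep, and KRT5 had 0 and 1 UMI. GATA3, which this list shares with trophectoderm, amnion and nephric duct, was at 22.6 and 10.8 CPM in the CXCL14-positive and 27.6 and 26.9 CPM in the UPK3A-positive cells. TFAP2A and TFAP2B are also in the amnion list, and TFAP2A in the trophectoderm list, so they do not single out surface ectoderm. Of 4 and 2 amnion genes considered in Ujumqin and Hulunbuir sheep, 2 and 1 were at least 4-fold higher on the CXCL14 side. On the UPK3A side 1 and 0 were. The label of an allantois-like epithelium could not be checked with the genes that chose the cells, and the cells are called by their genes throughout.

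Retinoic acid binding proteins stood with the AP-2 factors. CRABP1 was at 368 CPM in the CXCL14-positive against 24.4 CPM in the UPK3A-positive cells of Ujumqin sheep and at 2182.2 against 151 CPM in Hulunbuir sheep. CRABP2 was at 188 against 2.30 CPM and at 252 against 51.2 CPM. Of the retinoid list, 20 genes in the files, only 3 could be considered in each library, and these 2 passed the 4-fold limit. Over all genes considered 1.16% in Ujumqin and 0.95% in Hulunbuir sheep passed on the CXCL14 side. Other genes of this side had less of a common role. The surface protein CD24 was at 566 against 85.9 CPM and 594 against 104 CPM, CCDC68 at 147 against 7.81 CPM and 104 against 12.6 CPM, and TCF4, an E-protein transcription factor, at 82.7 against 4.60 CPM and 119 against 19.7 CPM. CRABP1, CRABP2 and CD24 were also present in other kept cells, at 69.6, 23.8 and 27.6 CPM in Ujumqin and 394, 186 and 155 CPM in Hulunbuir sheep. In Ujumqin sheep a single cell held 45.7% of all CXCL14 UMIs of the 37 CXCL14-positive cells and 27.6% of their S100A2, and in Hulunbuir sheep the largest share of CXCL14 in a cell was 6.50%.

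**Figure D3:**
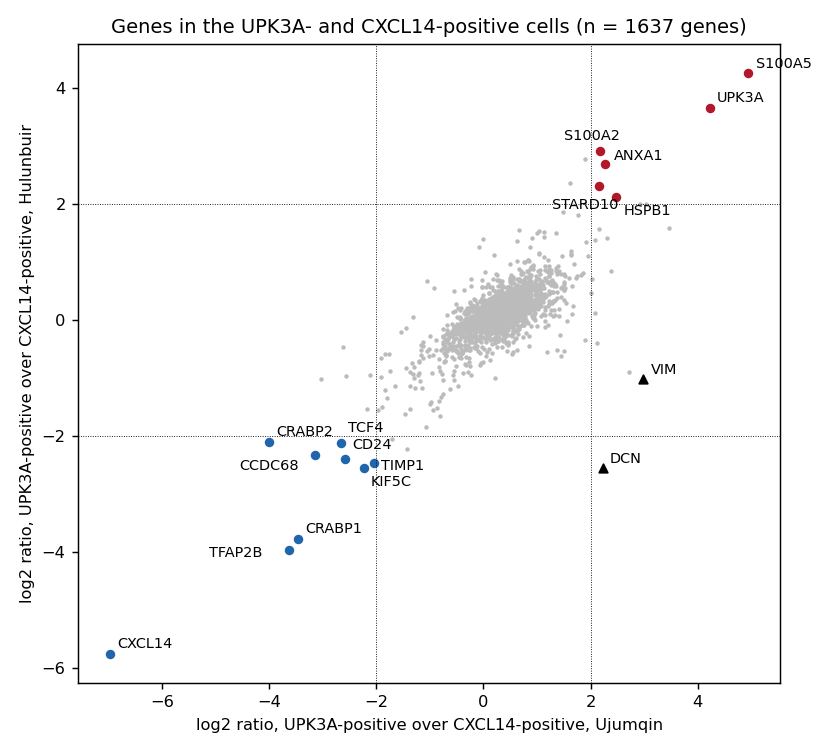
Log2 ratio of the level in UPK3A-positive over CXCL14-positive cells in Ujumqin (x axis) and Hulunbuir sheep (y axis) for the 1637 genes that reached 50 CPM in at least 1 of these groups in both libraries, with dotted lines at 4-fold. The 15 coloured genes passed 4-fold the same way in both libraries, S100A5 and UPK3A farthest to the upper right and CXCL14 to the lower left, and the triangles mark DCN and VIM, whose directions differed.

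Simple keratins were shared by both sides. KRT18 was found in all 66 and all 40 UPK3A-positive cells, at 2058 and 4608 CPM, and in all 37 and all 107 CXCL14-positive cells, at 3669 and 12153 CPM. KRT8 was at 117 against 221 CPM and at 266 against 778 CPM, also higher in the CXCL14-positive cells. KRT19 was at 2840 against 3340 CPM in Ujumqin and at 2904 against 1924 CPM in Hulunbuir sheep, so its order differed between the libraries. No keratin differed 4-fold between the UPK3A-positive and CXCL14-positive cells. The keratins of stratified epithelium were near absent, with KRT15 at 0 and KRT5 and KRT17 under 2 CPM in each group.

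The selected cells as a whole were then set against the other kept cells. This rest held 3643 erythroid cells in Ujumqin and 1 in Hulunbuir sheep, so ratios to the rest, here and below, are not alike between libraries. For the keratin list, the Ujumqin rest summed to 1271 CPM with and 1880 CPM without erythroid cells. In Ujumqin sheep 33 of 1650 genes (2%) were at least 4-fold higher in the selected cells than in the rest, and in Hulunbuir sheep 16 of 2013 (0.795%). The same 12 genes were in both sets, 6 of them selection genes, and the other 6 were AP1M2, S100A2, SERINC2, TPD52L1, STARD10 and CCDC68. AP1M2, the mu subunit of the epithelial AP-1B clathrin adaptor that sorts proteins to the basolateral membrane, was at 155 CPM (144 to 166) against 3.54 CPM in the rest in Ujumqin, and at 168 CPM (157 to 179) against 3.38 CPM in Hulunbuir sheep. It was found in 136 of 201 and 215 of 273 cells. At a depth of 2000 UMIs per cell, AP1M2 was seen in 29.6% (23.0 to 36.9) of Ujumqin cells and 31.7% (26.2 to 37.7) of Hulunbuir cells, against 0.133% of erythroid cells in Ujumqin sheep, with median depths of 7385 and 19986 UMIs before thinning. It did not follow the division, at 182 against 126 CPM and 225 against 188 CPM. RAB25, an epithelial recycling endosome GTPase, was at 54.5 CPM against 0.469 CPM and at 39.2 CPM against 0.650 CPM. Of the epithelial regulator list (19 genes in the files) RAB25 was the 1 gene considered in Ujumqin sheep, where it passed 4-fold, and no gene reached 50 CPM in Hulunbuir sheep.

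The other leading genes were chosen for 50 CPM or more in the selected cells of both libraries and for their ratio to the rest. SERINC2 was at 60.9 against 1.54 CPM and 89.7 against 9.61 CPM, TPD52L1 at 57.9 against 2.00 CPM and 70.9 against 6.82 CPM, and PDGFA, a growth factor that epithelia signal with to mesenchyme, at 78.7 against 4.44 CPM and 76.3 against 19.3 CPM. The tetraspanin CD9 was at 96.0 against 28.1 CPM and 73.2 against 14.3 CPM. S100A16 was at 218 against 29.99 CPM and 126 against 39.4 CPM. GRTP1, PCBD1, ABRACL, ITM2B, PDLIM1, PDLIM4, PCSK1N and IGFBP2 completed the 20 leading genes, with log2 ratios to the rest from 1.11 to 2.17. Their median shift has to be read against a median log2 ratio over all genes of 0.29 in Ujumqin and -0.12 in Hulunbuir sheep.

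**Figure D4:**
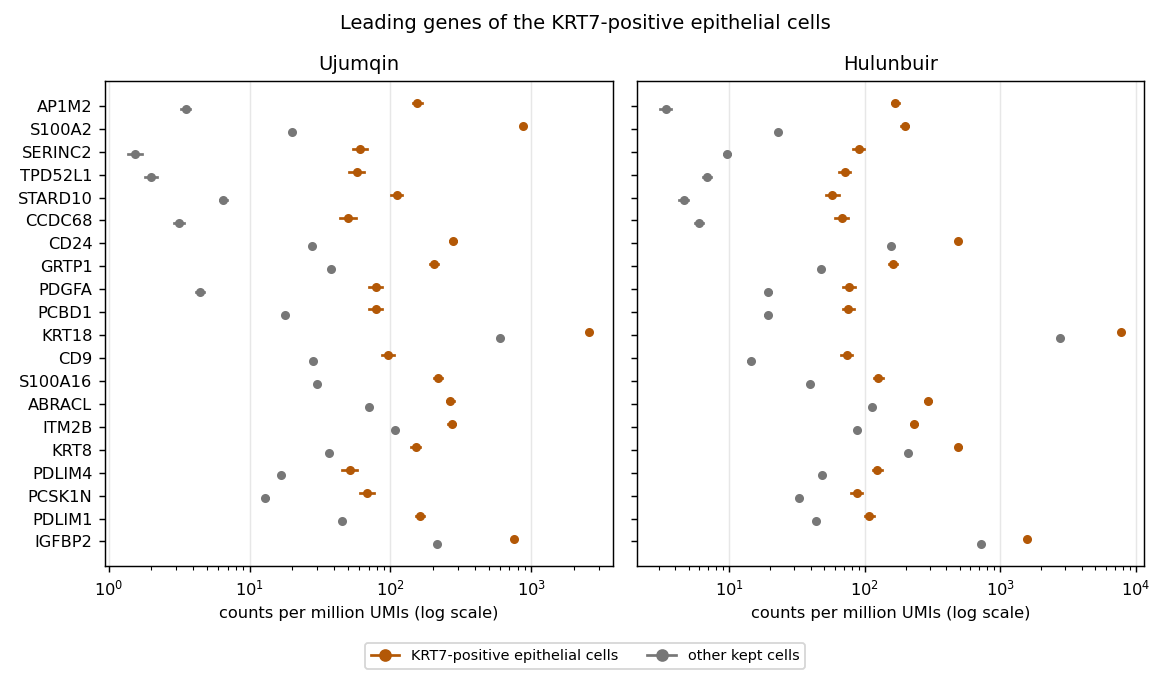
Level in CPM (x axis, log scale) of the 20 leading genes (y axis) in KRT7-positive epithelial cells and in the other kept cells of each library, with points at the summed level and bars for the exact 95% Poisson interval, which is often narrower than the point. The genes were chosen for a high ratio to the other kept cells in both libraries, and AP1M2 has the largest step in Hulunbuir sheep.

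KRT18 and KRT19 behaved differently against the rest. KRT18 was at 2551 against 599 CPM and at 7726 against 2734 CPM, higher in both libraries. KRT19 was at 2892 against 635 CPM in Ujumqin but at 2183 against 2406 CPM in Hulunbuir sheep, where the rest carried as much of it. Of the epithelial junction list (25 genes in the files) none passed the 4-fold limit in either library, among 1 and 4 genes that could. DSP, the desmosomal linker desmoplakin, was at 47.5 against 18.6 CPM and at 93.2 against 73.5 CPM, CXADR at 34.1 against 4.28 CPM and 61.2 against 37.9 CPM, and LSR at 57.2 against 24.7 CPM and 65.6 against 76.6 CPM.

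Neighbouring cells shared part of this set of genes. Other kept cells with at least 200 plasma protein UMIs per 10000, 241 in Ujumqin and 9 in Hulunbuir sheep, shared WFDC2 at 710 and 1083 CPM, CLDN4 at 468 and 571 CPM and AP1M2 at 89.3 and 98.4 CPM, but had KRT7 at 5.91 and 19.7 CPM and no UPK3A UMI. Of these, the plasma protein limit alone left out 16 Ujumqin cells and 1 Hulunbuir cell, and the others did not meet the gene rule. The lowest of the 16 had 868 plasma protein UMIs per 10000 and the 1 Hulunbuir cell 1247, while the selected cells reached 110 and 14.5. Cells with at least 2 UMIs of EPCAM, CLDN4 or CLDN7 but no KRT7, 402 and 970 in number, had AP1M2 at 8.65 and 15.04 CPM and VIM-rich allantois mesenchyme genes summing to 8618 and 4027 CPM. Unselected cells of the clusters that held most of the selected cells are given beside them. In Ujumqin cluster 16, 92 unselected cells, 28 of them with KRT7, had AP1M2 at 148 CPM against 181 CPM in the 111 selected ones, and in Ujumqin cluster 1 the 1883 unselected cells, 72 of them with KRT7, had it at 36.8 CPM against 149 CPM in the 64 selected ones. In Hulunbuir clusters 17 and 14 the 64 and 95 unselected cells, 19 and 17 of them with KRT7, had AP1M2 at 180 and 214 CPM against 214 and 196 CPM in the selected ones. Genes of the division were in part as high or higher in unselected cells. In Ujumqin cluster 1 and Hulunbuir cluster 14, CRABP1 was at 603 and 1302 CPM in unselected against 328 and 1923 CPM in selected cells. There TFAP2B was at 3.18 and 106 CPM against 95.4 and 138 CPM, and the selection gene CXCL14 at 37.9 and 665 CPM against 1020 and 408 CPM. In Ujumqin cluster 16 and Hulunbuir cluster 17, S100A2 was at 876 and 68.4 CPM against 1325 and 476 CPM. S100A5 was at 345 and 29.0 CPM against 367 and 134 CPM, and the selection gene UPK3A at 96.5 and 4.15 CPM against 163 and 76.0 CPM. A planned comparison with KRT7-negative cells carrying FOXA1, FOXA2 or FOXA3 held only 4 cells in each library and was not used.

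The endoderm factor list (25 genes in the files) summed to 39.6 CPM in the selected cells and 33.7 CPM in the rest in Ujumqin sheep, and to 130 against 107 CPM in Hulunbuir sheep. Only 1 and 4 of its genes reached 10 CPM, TCF7L2 in both libraries at 17.4 and 18.2 CPM, and in Hulunbuir sheep also CDX2, SOX2 at 38.0 and VIL1 at 11.8 CPM. FOXA3 and SOX17 had 0 UMIs in both libraries, FOXA1 had 8 and 3 UMIs, FOXA2 1 and 6, HNF4A 2 and 5 and GATA4 1 and 3. The FOXA genes and SOX17 were also rare in the rest, with at most 8 UMIs each in either library, so their low counts say little at this depth. GATA6 was at 2.12 and 5.63 CPM against 7.56 and 23.1 CPM in the rest. In the hindgut and cloaca list, BMP7 was at 61.1 against 21.5 CPM and 66.5 against 29.95 CPM, and CDX2, the caudal homeobox factor, was at 2.76 and 43.6 CPM. CDX2 stood on the CXCL14 side in Hulunbuir sheep, at 67.9 CPM in 64 of 107 cells against 6.28 CPM in 4 of 40 UPK3A-positive cells, and was near the limit in Ujumqin sheep, with 5 and 0 UMIs.

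Markers of other extraembryonic epithelia were mixed. The trophectoderm list (16 genes in the files) summed to 119 against 37.9 CPM in the rest in Ujumqin and 107 against 70.9 CPM in Hulunbuir sheep, and only 0 and 1 of its genes could be considered, none past 4-fold. Its gene TEAD4, a Hippo pathway factor, was at 34.6 and 31.6 CPM. The pregnancy-associated gene PAG4 and the homeobox gene DLX3 were at 0. Its genes ELF5 and PPARG, given above and under 50 CPM, were higher in the UPK3A-positive cells, and TFAP2A was higher in the CXCL14-positive cells. The whole list summed to 117 CPM in UPK3A-positive against 150 CPM in CXCL14-positive cells in Ujumqin, and to 92.4 against 105 CPM in Hulunbuir sheep. TKDP1, a trophoblast Kunitz protein, had 39 UMIs, all in 1 Hulunbuir cell. In the amnion list BAMBI was at 190 and 214 CPM against 137 and 324 CPM in the rest, IGFBP3 at 71.9 and 15.3 CPM against 14.3 and 21.2 CPM, and VTCN1 at 0. From this list TFAP2B alone was at least 4-fold higher than in the rest, in Hulunbuir sheep. IGFBP3 was higher in the UPK3A-positive than in the CXCL14-positive cells, at 130 against 6.68 CPM and 35.9 against 3.09 CPM. In the nephric duct list GATA3 was at 23.7 and 19.6 CPM against 0.610 and 2.75 CPM, while LHX1 was found in 2 and 21 cells and PAX8 in 4 and 13. The germ cell and pluripotency gene POU5F1 was found in 6 and 11 selected cells, and 76 of the 162 Hulunbuir UMIs lay in 2 cells.

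**Figure D5:**
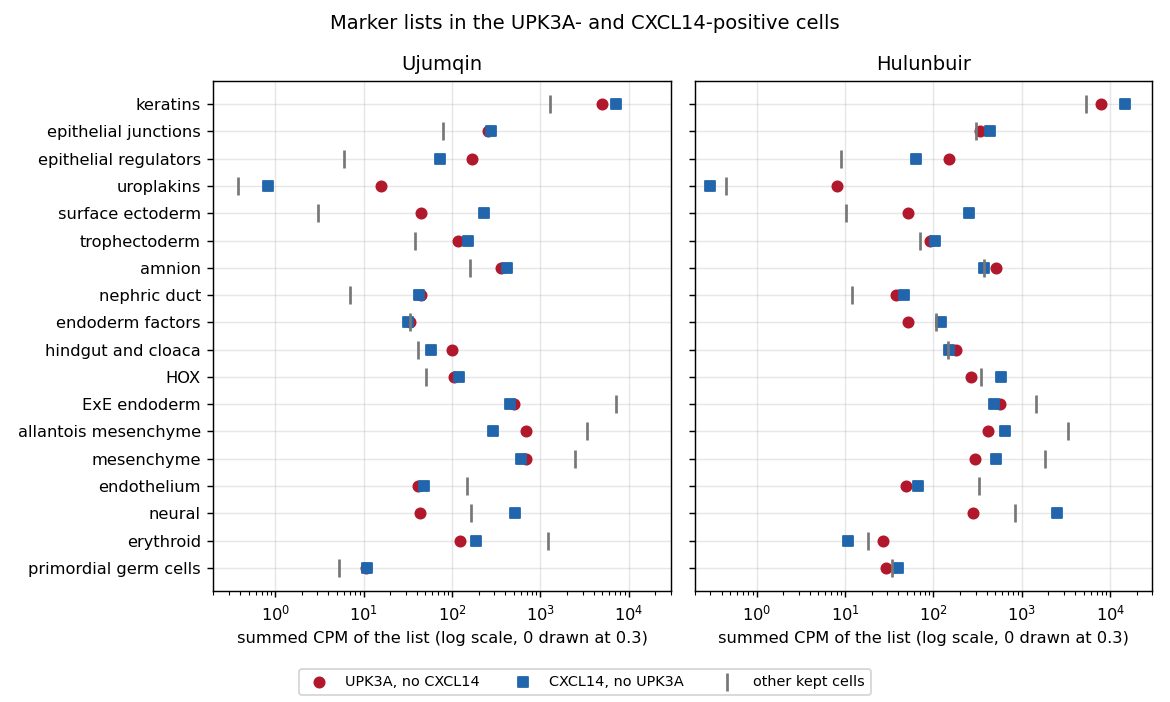
Summed level in CPM (x axis, log scale) of the genes of each marker list (y axis) in UPK3A-positive cells, CXCL14-positive cells and the other kept cells of each library. Uroplakins lie higher in the UPK3A-positive and surface ectoderm genes higher in the CXCL14-positive cells of both libraries, and the mesenchyme lists lie below the other kept cells on both sides.

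HOX genes, which record position along the body axis, were counted at low levels. Of 36 HOX genes found under the symbols of the list, 3 reached 10 CPM in the selected cells of Ujumqin sheep, HOXA7 at 16.8, HOXB9 at 15.1 and HOXC9 at 15.1 CPM, and 11 did in Hulunbuir sheep. There HOXB9 was at 65.8, HOXA7 at 62.9, HOXC9 at 57.8, HOXC4 at 32.9, HOXA5 at 27.8, HOXA6 at 26.5, HOXA9 at 18.3, HOXA3 at 16.7, HOXA11 at 15.3, HOXB7 at 14.9 and HOXC6 at 13.3 CPM. HOXA7 was higher on the CXCL14 side in both libraries, at 40.9 CPM (30.3 to 54.1) against 3.68 CPM (1.59 to 7.24) and at 97.8 CPM (84.4 to 113) against 17.0 CPM (10.3 to 26.6), though 1 cell held 49% of its UMIs in the CXCL14-positive Ujumqin cells. Hoxc8, which the files spell in this way and the list did not match, was at 12.3 and 21.8 CPM, and at 41.8 against 1.84 CPM and 41.7 against 1.79 CPM on the CXCL14 and UPK3A sides, the lower levels resting on 4 and 2 UMIs. It is named after its values were seen. Of the HOX list no gene was at least 4-fold higher on either side, among 0 considered in Ujumqin and 4 in Hulunbuir sheep. HOXA13 was at 3.68 CPM on the UPK3A side against 0 UMIs on the CXCL14 side in Ujumqin and at 13.5 against 3.60 CPM in Hulunbuir sheep, and HOXD13 at 5.97 CPM against 0 UMIs and 7.18 against 0.515 CPM, all on at most 15 UMIs, and both were picked after their values were seen. HOX genes at or under 10 CPM in both libraries included HOXA2, HOXA4, HOXB2 to HOXB6, HOXB8, HOXC5, HOXC10 to HOXC13, HOXD1, HOXD3, HOXD4, HOXD8 to HOXD10 and HOXD12, and HOXB1 and HOXB13 were at 0.

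Signalling and transport genes were described from the fixed lists. The BMP targets ID1 and ID3 were at 1184 against 291 CPM and 313 against 63.4 CPM in Ujumqin sheep, and at 1234 against 813 CPM and 790 against 584 CPM in Hulunbuir sheep. Of the BMP and hedgehog list 1 of 5 genes considered, ID3, was at least 4-fold higher than in the rest in Ujumqin and 0 of 5 in Hulunbuir sheep. Among WNT and FGF genes RSPO3, a WNT-enhancing secreted protein, was at 10.2 against 73.2 CPM and 16.9 against 126 CPM, lower than in the rest by more than 4-fold in both. Of the Hippo list 0 and 1 genes could be considered, and none passed 4-fold, with WWC1 at 16.3 and 6.90 CPM against 0.449 and 1.10 CPM but below the level limit and YAP1 at 7.85 and 13.1 CPM. Of the solute and water transport list, ATP1B1, a sodium pump subunit, was at 105 against 12.1 CPM in Ujumqin but 66.7 against 58.5 CPM in Hulunbuir sheep, and AQP2, AQP3, AQP5 and SCNN1A were at 0. Cell cycle genes were near the rest, with summed G2/M levels of 1778 against 1779 CPM and 2640 against 2914 CPM, and FOS, an immediate early gene, at 371 against 181 CPM and 107 against 57.8 CPM. In the hexose list ALDOA was at 421 against 279 CPM and 444 against 606 CPM. In the secreted and mucosal list CST3 was at 462 against 188 CPM and 463 against 265 CPM.

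Markers of other cell types were read from their lists. Against the rest, 32 genes (1.94%) were at least 4-fold lower in Ujumqin and 11 (0.546%) in Hulunbuir sheep, and 7 were lower in both, VIM, COL1A1, LUM, PLVAP, RSPO3, APOA1 and a feature without a symbol. VIM was at 318 against 2245 CPM and 440 against 2223 CPM. Summed over the 15 mesenchyme genes the level was 672 against 2475 CPM and 489 against 1813 CPM, and over the 16 endothelial genes 44.5 against 146 CPM and 74.1 against 330 CPM, with PECAM1 at 0 and 2.36 CPM. The mesothelial genes WT1 and LRRN4 were at or under 2 CPM, and the leukocyte genes PTPRC and SPI1 at 0. Erythroid genes summed to 233 CPM in the selected Ujumqin cells, with AHSP at 118 CPM, against 2506 CPM in the 3643 erythroid cells, and to 17.3 CPM in Hulunbuir sheep, where 1 erythroid cell was kept. AHSP UMIs were in 35.3% of the selected Ujumqin cells and 39.6% of the non-erythroid rest. AHSG was at 60.9 CPM in the selected Ujumqin cells, against 80.1 CPM in erythroid cells and 2583 CPM in the rest, and its UMIs were in 65.2% of them and 63.0% of erythroid cells, which were deeper. Thinned to 2000 UMIs, AHSG was in 19.6% (14.01 to 26.1) of the selected cells and 19.6% (17.6 to 21.7) of the non-erythroid rest. It was in 30.2% (19.2 to 43.0) of the UPK3A-positive, 14.3% (4.81 to 30.3) of the CXCL14-positive and 12.1% (10.5 to 13.9) of erythroid cells. The source of these UMIs was not tested. The neural list summed to 222 against 164 CPM in the rest in Ujumqin and to 1396 against 841 CPM in Hulunbuir sheep, most of it CRABP1, at 120 and 1034 CPM. On the CXCL14 side the neural sum was 512 and 2521 CPM, against 43.2 and 281 CPM on the UPK3A side, while SOX1, SOX3, OLIG2 and ZIC1 were at 0 in the selected cells. Of neural genes STMN2 had 98.4% of its UMIs in 1 selected Ujumqin cell.

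The share of kept cells that were KRT7-positive epithelial cells was 1.38% (1.20 to 1.58, Clopper-Pearson) in Ujumqin and 2.85% (2.52 to 3.20) in Hulunbuir sheep. Kept cells included 3643 erythroid cells in Ujumqin and 1 in Hulunbuir sheep. The depth of the KRT7-positive epithelial cells differed, at medians of 7385 UMIs (513 to 185050) and 15648 UMIs (1282 to 145484). When each cell was thinned to 2000 UMIs before the rule was applied, the shares were 0.739% (0.577 to 0.933) of 9471 cells and 0.493% (0.356 to 0.666) of 8520 cells, so the order of the breeds turned. Exactly 1 UMI in each of the 3 gene groups was held by 9 Ujumqin and 7 Hulunbuir cells, and 69 and 81 cells had a single UMI of KRT7. Asking for 2 UMIs in each group left 114 and 159 cells. The makeup also differed, with the UPK3A-positive cells 66 to 37 against the CXCL14-positive ones in Ujumqin and 40 to 107 in Hulunbuir sheep. With 1 library per breed, breed, dissection, depth and the animals taken cannot be told apart.

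Between the breeds, 7 of 1910 genes (0.366%) were at least 4-fold higher in the Hulunbuir cells and 15 (0.785%) at least 4-fold lower. Among those with a symbol and at least 100 CPM were 5 higher and 4 lower genes, of which 1 and 2 went at least 2-fold beyond the same difference in the other kept cells. S100A2 was at 197 CPM (185 to 209) in Hulunbuir and 866 CPM (840 to 893) in Ujumqin cells, a log2 ratio of -2.08 against 0.14 in the rest, and S100A5 was at 45.6 against 218 CPM, a log2 ratio of -2.03 against -0.10. Both belong to the UPK3A side, which was smaller in the Hulunbuir library, and among UPK3A-positive cells alone the log2 ratios were -1.18 and -1.01. SPP1, the secreted phosphoprotein osteopontin, was at 189 against 38.4 CPM, but 899 of its 1041 Hulunbuir UMIs lay in 2 cells. KRT7 was at 294 CPM (280 to 308) and 318 CPM (303 to 335), and AP1M2 had a log2 ratio of 0.11. Over all genes considered in the selected cells the median log2 ratio of Hulunbuir over Ujumqin sheep was 0.23.

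The levels most unequal from cell to cell, relative to genes of like mean level, were in both libraries those of ThymB4X, IGFBP2, HSPB1, S100A2, GAPDH, HSP90B1, ID1, ACTG1, WFDC2 and MDK. Of these S100A2, WFDC2 and HSPB1 followed the division, with WFDC2 at 1470 against 171 CPM and 498 against 118 CPM. The housekeeping genes GAPDH and ACTG1 did not, with log2 ratios between the UPK3A-positive and CXCL14-positive cells of 0.51 and 0.02 in Ujumqin and 0.63 and 0.00 in Hulunbuir sheep. MDK, the growth factor midkine, was lower on the UPK3A side in Ujumqin sheep with a log2 ratio of -1.55 and at -0.20 in Hulunbuir sheep.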

How the data were processed

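The deposited matrices hold raw UMI counts for each feature in each barcode, produced by the authors using Cell Ranger with a Rambouillet sheep reference, and not normalized. The file header names version 5.0.0, whereas the submitters' processing notes list Cell Ranger 3.1.0, Seurat 3.2.0 and R 3.6.1. Libraries held 17059 and 10709 barcodes, with 61 barcodes in common, 1 of them a selected cell. Kept cells had 200 detected genes or more and less than 10% of UMIs from mitochondrial genes. A repeated symbol was taken at its first feature. The selected cells and the gene lists were chosen with earlier results of these data known, and the division by UPK3A and CXCL14 after the data were seen.

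Levels were UMIs of a gene over all UMIs of a group, as CPM. Log2 ratios had 10 CPM added to both levels, genes with at least 50 CPM in either group were considered, and a gene was called at 4-fold. Intervals are exact Poisson for levels and Clopper-Pearson for shares, and a count of 0 allows 3 counts. They cover counting error only. With 1 library per breed no test was made. Named genes were the selection genes, up to 5 of each list by level, with its undetected markers, every HOX gene, the 20 genes highest against the rest in both libraries at 50 CPM or more, breed differences of at least 4-fold at 100 CPM or more that passed those of other cells by 2-fold, and the 10 most unequal genes. Clusters used 2000 variable genes, 30 components, 20 neighbours and Leiden resolution 1 in scanpy 1.11.5. Scrublet was used only to score doublets, at 0.8% per 1000 barcodes. At its own threshold it marked 189 kept Ujumqin cells (1.30%), 8 of them among the 201 selected cells, and 1 Hulunbuir cell. The highest scores at the expected rate of 13.6% held 7.96% of the selected Ujumqin cells. In Hulunbuir sheep it did not work, and doublets were not removed. The calling step was tested on simulated data. A few genes of the lists are not reported here.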

Additional observations from a re-analysis of the deposited data

Results flagged for a closer look

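The division had a different direction in the libraries for DCN and VIM, and this difference was not tested. The log2 ratio of UPK3A-positive over CXCL14-positive cells was 2.23 for DCN, a small proteoglycan of mesenchyme, in Ujumqin and -2.55 in Hulunbuir sheep, and for VIM, the mesenchymal intermediate filament, 2.98 and -1.02. In the UPK3A-positive Ujumqin cells 2 cells held 86.8% of the DCN UMIs and 69.3% of the VIM UMIs, and in the CXCL14-positive Hulunbuir cells the 2 highest held 53.8% of DCN and 28.8% of VIM. LUM and COL1A1 turned in the same way, with LUM at 110 CPM in the UPK3A-positive against 8.35 CPM in the CXCL14-positive cells of Ujumqin and 33.2 against 70.5 CPM in Hulunbuir sheep, and COL1A1 at 170.1 against 38.4 CPM and 65.5 against 85.9 CPM. In the UPK3A-positive Ujumqin cells 2 cells held 73.8% of the LUM and 60.5% of the COL1A1 UMIs. Neither difference was tested. In cluster 7 of Ujumqin sheep, led by LUM and COL1A1, lay 2 UPK3A-positive cells.

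Among barcodes outside the cell filter, 4 in the Ujumqin and 18 in the Hulunbuir library met the gene rule. They enter no comparison.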

How the results depend on the processing

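No paired analysis was possible because each breed was 1 library, and no replicate could be left out. The share of selected cells moved with the demands on depth. In Ujumqin sheep it was 1.85% with at least 500 genes, 0.907% with at least 2 UMIs of KRT7, 0.783% with at least 2 UMIs in each gene group and 0.739% after thinning, and in Hulunbuir sheep 2.00%, 1.66% and 0.493% for the last 3. Without a mitochondrial limit and with other plasma protein limits the shares stayed within their intervals. Scrublet did not work in Hulunbuir sheep, so nothing is read from leaving out its highest scores there.

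Genes at least 4-fold higher than in the rest numbered 21 in Ujumqin sheep as the mean of the cells' CPM, 50 without mitochondrial, ribosomal protein and haemoglobin genes in the total, 14 at a minimum of 200 CPM and 21 against KRT7-negative cells with adhesion UMIs. In Hulunbuir sheep they numbered 5 at 200 CPM, and 3 were shared at that minimum. Breed differences at 200 CPM were 3 higher and 7 lower, and with the reduced total 15 higher. For the division, 200 CPM left 11 and 7 genes in Ujumqin and 3 and 7 in Hulunbuir sheep, in the order UPK3A side and CXCL14 side. The reduced total gave 40 genes on the CXCL14 side in Ujumqin, and 16 on the UPK3A and 31 on the CXCL14 side in Hulunbuir sheep. Leaving out the highest Scrublet scores gave 16 on the UPK3A side in Hulunbuir, and dividing by cluster 35 on the CXCL14 side in Ujumqin sheep. The last, and the comparisons without KRT7 and without erythroid cells, were chosen after seeing the data. A higher minimum considers fewer genes. The other causes were not tested. Of 589 values of single genes under these settings 420 stayed within their counting interval and 169 moved. A turn in direction was counted only where the main ratio was at least 4-fold, and there were 0. Turns of smaller ratios were not counted apart. Depth limits what can be said of transcription factors, most of which had fewer than 10 CPM.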
